A study of Mus musculus with 18 samples.

Results

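The 10 genes described here encode core parts of the mouse Notch pathway: the receptors Notch1, Notch2 and Notch3, the ligands Dll1, Dll4 and Jag1, and the target genes Hes1, Hey1, Hey2 and Heyl. They were taken by gene symbol from a raw count table of 23337 genes, and all 10 were found and passed the filter on low counts, as did 14892 genes in all. The cells were mouse embryonic stem cells of the line GLI1-FTA, in the A2Lox.cre background, differentiated toward cardiomyocytes. In this line doxycycline (dox) switches on GLI1, a nuclear effector of Hedgehog signalling. GLI1 overexpression (GLI1 OE) cultures received 500 ng/ml dox for 24 hours between day 5 (D5) and day 6 (D6), and the dox was then washed away. Pulsed cultures gave 3 libraries at D6, 2 at D8 and 2 at D12. Untreated cultures of the line, the controls, gave 4 at D5, 3 at D6, 2 at D8 and 2 at D12. All groups carry the inducible transgene, no group received dox without it, and all 18 libraries come from this line. The labels call the D5 and D6 cells cardiac progenitors and the later ones cardiomyocytes. They do not say that replicates came from separate cultures, so p-values measure the spread between these libraries, which may be technical. How far the counts of replicates differ was measured as a chi-square per gene. D5 libraries 1 and 2 were the most alike, at 5.97. The next most alike, D6 GLI1 OE libraries 16 and 4, had 12.3. D5 pairs that include library 3 or 4 lay between 42.7 and 79.1. Whether D5 libraries 1 and 2 came from separate cultures was not tested, and each counts as 1 of the 4 at D5.

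Notch receptors are membrane proteins that are cut when a ligand on a neighbouring cell binds them. The freed intracellular part enters the nucleus, joins the DNA-binding protein RBPJ and the coactivators of the Mastermind family, and turns on genes of the HES and HEY families. HES and HEY proteins are basic helix-loop-helix repressors. In the heart the pathway is known for its work in the endocardium, in the forming valves, in trabeculation, and in the vascular smooth muscle around vessels.

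Total counts ran between 18470785 and 26184339 per library, and levels below are counts scaled to library size (CPM). Gli1 averaged 909 ± 134 CPM in the D6 GLI1 OE libraries and 14.0 ± 7.28 CPM in the D6 controls (SD, n = 3 each). At D8 and D12 all groups averaged between 0.855 and 1.19 CPM. Ptch1, a direct Hedgehog target, averaged 1010 ± 98.2 CPM in D6 GLI1 OE cells and 53.2 ± 19.7 CPM in D6 controls. At D8 Ptch1 had 39.7 CPM in GLI1 OE library 14 and 105 CPM in library 18, against 33.4 and 29.6 CPM in controls. The D8 log2 fold change was 1.20 ± 0.39 (SE), with an adjusted p of 0.698 in the edgeR fit. At D12 Ptch1 averaged 43.0 CPM in GLI1 OE cells and 46.6 CPM in controls. Markers of the labelled types were present in every group, apart from Mesp1 at 0 in both D12 groups. The summed level of 9 cardiac progenitor markers was 579 to 703 CPM in D6 GLI1 OE cells and 791 to 1091 CPM in D6 controls. The summed level of 10 cardiomyocyte markers was 870 to 10882 CPM in D8 GLI1 OE cells and 5124 to 13532 CPM in D8 controls. D8 GLI1 OE library 18 held the 870 CPM and stood apart from its replicate in this respect, so D8 values are given for each library.

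At D6, at the end of the pulse, 2 of the 10 genes were higher in GLI1 OE cells and none was lower. These were Hey1 and Heyl, both target genes. Across all genes tested 4.14% passed this test (an adjusted p under 0.05), 3.02% as higher and 1.12% as lower. The median log2 fold change of the 10 genes was 0.41, against -0.02 for all genes tested, with 6 estimates above 0 and 4 below. At D8 and at D12 none of the 10 genes passed, and none had an unadjusted p under 0.05. In both of these comparisons 0% of all genes passed in edgeR, with 886 genes at D8 and 840 at D12 under an unadjusted p of 0.05. DESeq2 called 40 genes at D8 and 14 at D12, none of them among the 10, and limma-voom called 0 and 1, again none of the 10. In edgeR, leaving out D8 GLI1 OE library 14 gave 49 calls at D8 and leaving out D8 control library 13 gave 1, leaving out D12 GLI1 OE library 10 gave 5 at D12, and a block of library pairs with the D12 pairs crossed gave 59 at D8 and 3 at D12, none of them among the 10.

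**Figure D1:**
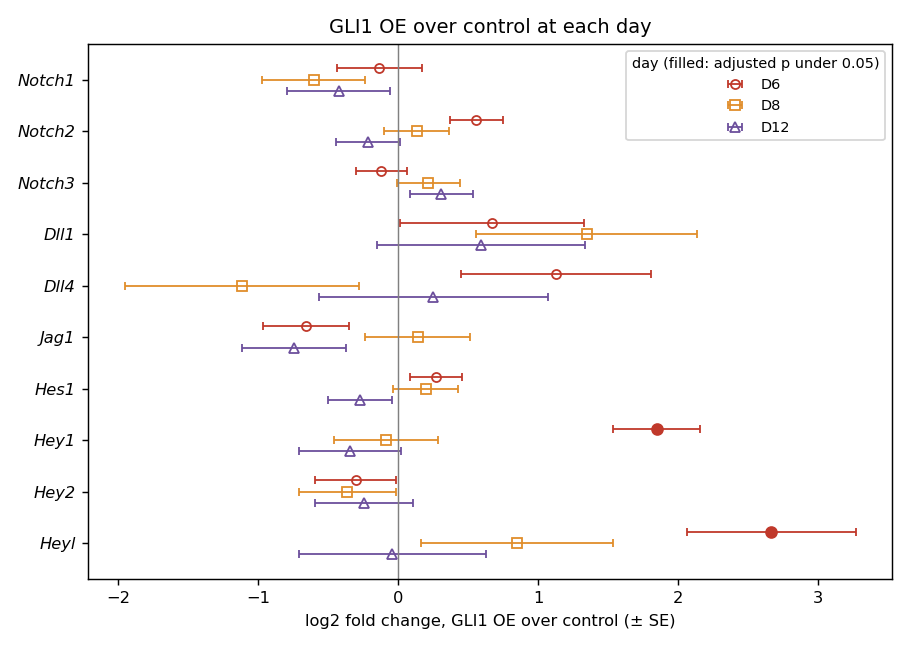
Log2 fold changes of GLI1 OE over control (horizontal axis) for the 10 genes at D6, D8 and D12, with bars of 1 standard error from the edgeR fit. Filled symbols passed at an adjusted p under 0.05: Hey1 (1.85) and Heyl (2.66) at D6, and no gene at D8 or D12.

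Before the pulse, the genes differed widely in level. Transcript abundance that accounts for gene length (TPM, deposited for the 4 D5 controls) was highest for Jag1 at 62.9 ± 22.7 TPM (SD, n = 4) and Hes1 at 58.4 ± 14.4 TPM. Next came Notch3 at 39.0 ± 8.56 TPM and Notch2 at 25.6 ± 3.94 TPM. These 4 genes overlapped with their neighbours in the order. Hey2 at 11.4 ± 3.41 TPM, Notch1 at 10.03 ± 3.40 TPM and Hey1 at 5.57 ± 1.20 TPM formed a lower range, below Notch2 in every replicate, and each overlapped with its neighbour. Dll4 at 0.435 ± 0.380 TPM, Heyl at 0.265 ± 0.225 TPM and Dll1 at 0.248 ± 0.183 TPM overlapped with each other and lay below Hey1 in every replicate. Dll1 was listed at 0 TPM in replicate 2, although each D5 library had at least 5 raw counts of it. The TPM and the counts thus differ for this gene, and the cause was not tested. The D5 cells therefore held transcripts of all 3 receptors, of Jag1 and of Hes1, with little Dll4, Dll1 or Heyl.

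Among the receptors, Notch1 rose with time. It had 158 and 195 CPM in the D8 controls, against 48.3, 74.4 and 88.0 CPM in the D6 controls. The groups did not overlap, and the log2 fold change was 1.33 ± 0.33 (SE, adjusted p = 0.00745), a call that was lost without D8 control library 17 (adjusted p = 0.0588). In the pulsed cells Notch1 had 136 and 96.5 CPM at D8 and 42.8, 70.1 and 79.1 CPM at D6, a change of 0.86 ± 0.33 that did not pass (adjusted p = 0.0532). It did pass in 4 of 10 alternatives: DESeq2 (adjusted p = 0.0356), limma-voom (0.0450), and without D6 GLI1 OE library 4 (0.0444) or D8 GLI1 OE library 18 (0.0493). GLI1 OE over control did not pass at any day: the log2 fold change was -0.13 ± 0.30 at D6, -0.60 ± 0.37 at D8 and -0.42 ± 0.37 at D12. At D8 and D12 the GLI1 OE libraries were all below the control libraries of their day. With 2 libraries in each group, 4 of the 10 genes did not overlap at D8 and 5 at D12, where 0% of all genes passed. The share of all genes without overlap was not counted, so no conclusion is drawn from such separation.

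Notch2 had 162, 172 and 171 CPM in D6 GLI1 OE cells, against 131, 105 and 107 CPM in D6 controls. The groups did not overlap, and the log2 fold change was 0.56 ± 0.19, but it did not pass over all genes (adjusted p = 0.134). In a fit of the D6 libraries alone it did pass (0.57, adjusted p = 0.0146). In controls Notch2 rose at the last step, to 181 and 255 CPM at D12, against 80.4 and 74.1 CPM at D8, by 2.82-fold (adjusted p = 0.000339). The pulsed cells had 60.6 and 109 CPM at D8, below their D6 libraries (-0.99 ± 0.22, adjusted p = 0.00293), and 180 and 195 CPM at D12, above their D8 libraries (1.15 ± 0.23, adjusted p = 0.00218). The D12 rise of the pulsed cells was lost in a fit of those groups alone (adjusted p = 0.0887), which called 0 of all genes, against 4985 in the fit to all libraries.

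Notch3, known in the heart for its role in vascular smooth muscle and pericytes, had group means that spanned 0.93 log2 units, the least of the 10 genes. It had 204, 234 and 197 CPM in D6 controls, against 133, 162, 169 and 103 CPM in D5 controls (0.58 ± 0.17, adjusted p = 0.0294). It fell again to 122 and 175 CPM in D12 controls, against 210 and 248 CPM in D8 controls (-0.63 ± 0.23, adjusted p = 0.0422). Both calls were close to the threshold and were lost in several alternatives. Over the alternatives the log2 fold change stayed between 0.45 and 0.67 for the first call and between -0.89 and -0.40 for the second. The first was lost without D5 control library 1 (adjusted p = 0.0714) or 4 (0.0589), or without D6 control library 11 (0.0532), 15 (0.122) or 3 (0.0507), and in a fit of those groups alone (0.0606). The second was lost without D8 control library 13 (adjusted p = 0.0637) or 17 (0.218), without D12 control library 19 (0.296), and in a fit of those groups alone (0.0696). The D6 GLI1 OE libraries, at 189, 199 and 196 CPM, overlapped with the D6 controls, at a log2 fold change of -0.12 ± 0.18.

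**Figure D2:**
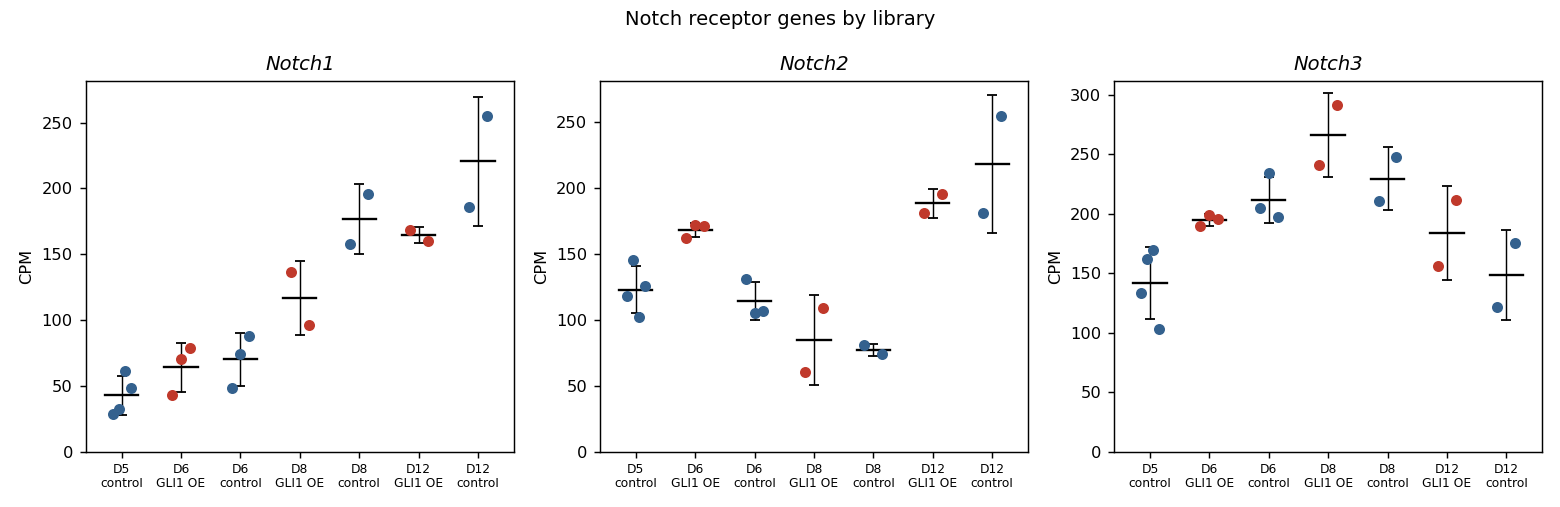
CPM of Notch1, Notch2 and Notch3 (vertical axis, linear) in each library, by day and condition, with red points for GLI1 OE and blue for control. The long bar is the group mean and the thin bars are 1 SD; Notch2 lies at 162 to 172 CPM in D6 GLI1 OE and 105 to 131 CPM in D6 control.

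Among the ligands, Dll4, which marks arterial endothelium and endocardium and is expressed by endothelial tip cells, differed most between groups. Its group means spanned 5.22 log2 units. The D6 controls had 3.40, 3.88 and 19.4 CPM, against 0.519, 0.403, 1.49 and 0.295 CPM in D5 controls. The groups did not overlap, and the fold was 13.1 (log2 3.71 ± 0.72, adjusted p = 0.00277). The call held in all 12 alternatives, but the size moved with single libraries: the log2 fold change was 2.42 without D6 control library 3 and 4.43 without D5 control library 3. The D6 GLI1 OE libraries had 8.40, 17.99 and 32.1 CPM, which was 28.6-fold the D5 level (log2 4.84 ± 0.74, adjusted p = 0.000264), or 5.56 on the log2 scale without D5 control library 3. Both comparisons share the D5 controls. Any difference in how the D5 libraries were handled or counted cannot be told apart from the day in them.

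Against the D6 controls, Dll4 did not pass: the groups overlapped, since control library 3 reached 19.4 CPM, and the log2 fold change was 1.13 ± 0.68 (adjusted p = 0.480). The library numbers place each GLI1 OE library next to a control (12 with 11, 16 with 15, 4 with 3), and GLI1 OE was higher in all 3 such pairs, by 1.31, 2.21 and 0.73 on the log2 scale. A fit with these pairs as a replicate block, chosen after the data were seen, called Dll4 (1.37, adjusted p = 0.0221). It did not pass when the D12 pairs of that block were crossed. At D8 the values were 7.13 and 7.81 CPM in GLI1 OE cells and 16.3 and 16.0 CPM in controls. These groups of 2 libraries did not overlap, and the change of -1.11 ± 0.84 did not pass (adjusted p = 0.901). At D12 the values were 16.6 and 35.7 CPM in GLI1 OE cells and 30.6 and 13.3 CPM in controls, which overlapped.

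Endothelial and endocardial markers are given beside Dll4. The summed level of 10 such markers was 381 to 634 CPM in D6 GLI1 OE cells, 241 to 568 CPM in D6 controls and 88.6 to 313 CPM in D5 controls. None of the 10 markers was at 0 in any group, and 1 of them, Sox18, passed at D6, at 89.6 ± 18.2 CPM in GLI1 OE cells and 16.8 ± 7.17 CPM in controls (SD, n = 3 each). At D8, where Dll4 did not overlap, the marker sums overlapped, at 258 and 565 CPM in GLI1 OE cells and 363 and 560 CPM in controls, with none of the 10 called and a median log2 fold change of -0.11. D6 control library 3, with the highest Dll4 of the controls of that day, also had their highest marker sum. Among the D5 controls library 3 had both the highest Dll4 (1.49 CPM) and the highest marker sum (313 CPM). The part of these markers in the Dll4 values was not tested, and in bulk RNA fewer cells of a type and less RNA per cell cannot be told apart.

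**Figure D3:**
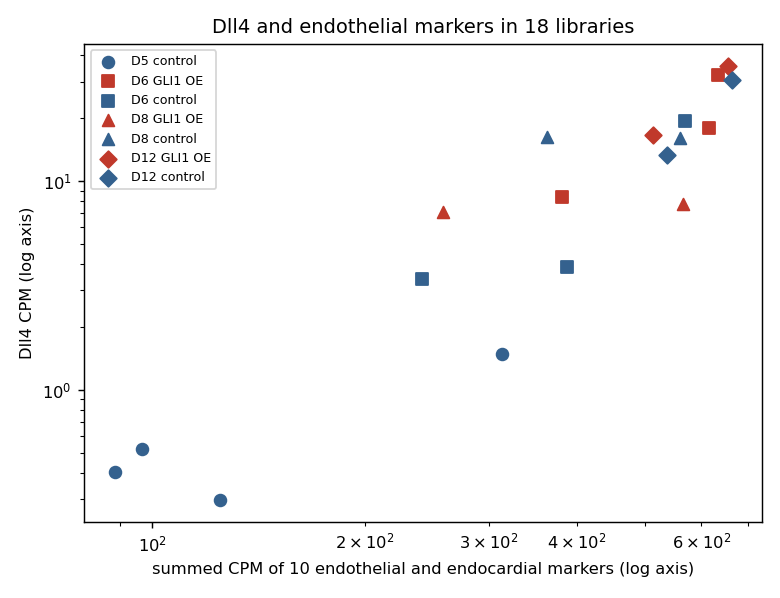
Dll4 in CPM (vertical, log axis) against the summed CPM of 10 endothelial and endocardial markers (horizontal, log axis) in the 18 libraries, with colour for condition and symbol shape for day. The D5 controls have the lowest Dll4 (0.295 to 1.49 CPM), and the D12 libraries lie at the upper right (13.3 to 35.7 CPM). D6 GLI1 OE libraries 16 and 4, D6 control library 3 and D8 control library 17 lie among the D12 libraries. D5 control library 3 has a higher marker sum (313 CPM) than D6 control library 11 (241 CPM). D8 GLI1 OE library 18 has a marker sum of 565 CPM with Dll4 at 7.81 CPM.

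Jag1, the ligand required in endocardium and smooth muscle for outflow and valve development, was lower at the end of the pulse without passing the test. It had 78.9, 70.6 and 81.6 CPM in D6 GLI1 OE cells, against 163, 109 and 91.7 CPM in D6 controls. The groups did not overlap, and the log2 fold change was -0.66 ± 0.31 (adjusted p = 0.318). Against the D5 controls, at 185, 173, 74.5 and 200 CPM, the D6 GLI1 OE cells were lower (-1.04 ± 0.29, adjusted p = 0.0162), while D6 controls did not pass against D5 (-0.38 ± 0.29, adjusted p = 0.393). The call against D5 was lost without D6 GLI1 OE library 16 (adjusted p = 0.0697), and D5 control library 3 lay within the range of the GLI1 OE cells.

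Jag1 had its largest change late. In controls it rose to 325 and 415 CPM at D12, against 84.6 and 84.4 CPM at D8, a 4.38-fold rise (log2 2.13 ± 0.39, adjusted p = 0.000924) that held in all 9 alternatives run. In pulsed cells it had 268 and 174 CPM at D12 and 105 and 81.7 CPM at D8 (1.25 ± 0.38, adjusted p = 0.0212). This call was lost without D12 GLI1 OE library 10 (adjusted p = 0.161) or D8 GLI1 OE library 18 (0.120), and in the fit of those groups alone that called 0 of all genes (0.0678). At D12 both GLI1 OE libraries lay below both controls, a log2 fold change of -0.74 ± 0.37 that did not pass (adjusted p = 0.895).

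Dll1, a ligand known for somites and neural tissue, was near the limit of detection. It had 5 to 60 counts per library, under 10 counts in 4 of the 18 libraries. Its group means were 0.443 CPM in D5 controls and 2.62 CPM at most, in D12 GLI1 OE cells, and no comparison of it passed in the fit to all libraries. D12 over D8 did pass in controls in a fit of those groups alone (adjusted p = 0.0498), and in pulsed cells without D8 GLI1 OE library 18 (2.66, adjusted p = 0.0419). At D8 it had 0.416 CPM in GLI1 OE library 14 and 2.72 CPM in GLI1 OE library 18, against 0.708 and 0.523 CPM in controls.

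**Figure D4:**
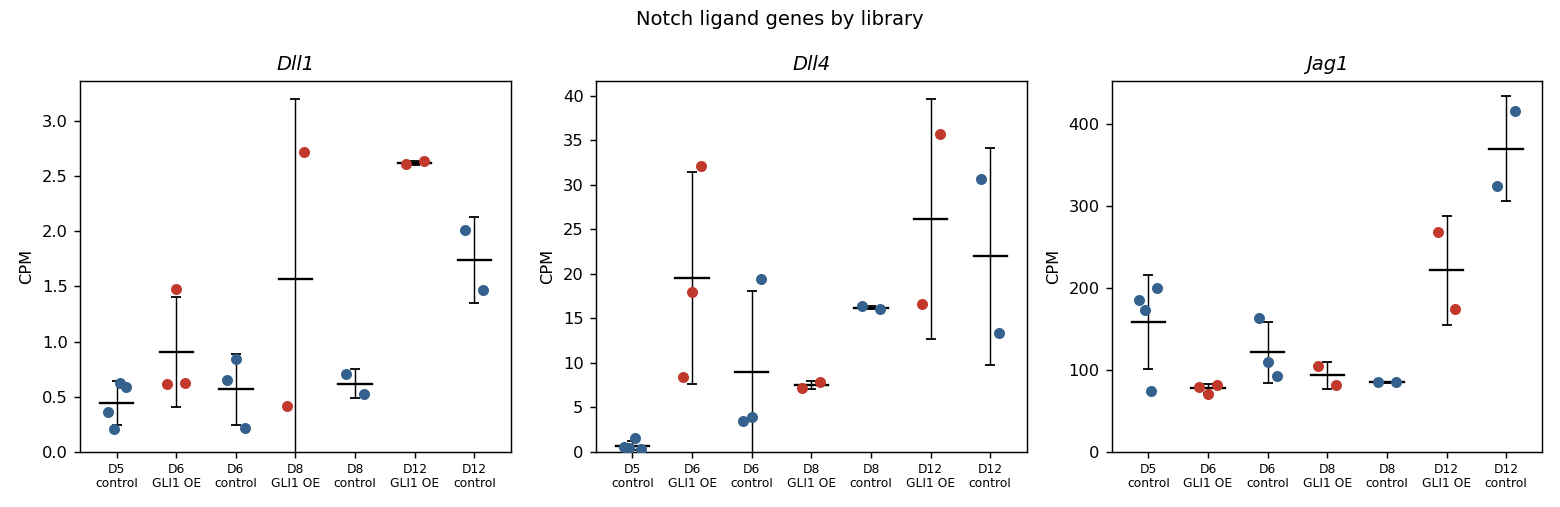
CPM of Dll1, Dll4 and Jag1 (vertical axis, linear, a different range in each panel) in each library, by day and condition, with red points for GLI1 OE and blue for control. The long bar is the group mean and the thin bars are 1 SD, drawn only above 0; Jag1 lies at 174 and 268 CPM in D12 GLI1 OE and at 325 and 415 CPM in D12 control.

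The target genes are close relatives, so their coding sequences were compared first, to show what sets the HEY genes apart. HES proteins carry a proline and HEY proteins a glycine at a fixed place in the basic region, which contacts DNA. The stretches below are the 63 coding bases of each gene around this codon, read 5′ to 3′ from the GENCODE M21 transcripts (build GRCm38), with that codon in capitals.
Hes1: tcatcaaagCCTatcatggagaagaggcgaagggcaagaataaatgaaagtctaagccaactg
Hey1: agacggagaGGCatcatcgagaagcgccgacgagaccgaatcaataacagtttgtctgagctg
Hey2: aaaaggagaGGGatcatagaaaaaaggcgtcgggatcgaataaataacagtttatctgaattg
Heyl: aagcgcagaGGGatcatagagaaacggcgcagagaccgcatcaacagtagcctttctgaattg
Over these bases Hey1 and Hey2 were 76.2% identical, Hey2 and Heyl 73.0%, and Hey1 and Heyl 71.4%, while Hes1 shared 49.2% to 58.7% with the HEY genes. No run of 50 bases, the read length, was shared by any of the 45 pairs of the 10 genes over their 39 annotated transcripts. In GRCm38 Hes1 lies on chromosome 16 (30064384 to 30067796), Hey1 on chromosome 3 (8663359 to 8667256), Hey2 on chromosome 10 (30832359 to 30842801) and Heyl on chromosome 4 (123233556 to 123249875).

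Hey1, expressed in embryonic endocardium, in vessels and in the atrial part of the developing heart, had 47.5, 52.3 and 60.0 CPM in D6 GLI1 OE cells, against 14.8, 10.4 and 19.2 CPM in D6 controls. Every GLI1 OE library was above every control, by 3.60-fold on average (log2 1.85 ± 0.31, adjusted p = 0.00308). The call held in all 13 alternatives run, with log2 fold changes between 1.64 and 2.07. Hey1 was also higher at D6 than at D5 without the pulse: the D6 controls were above the D5 controls, at 7.30, 4.80, 5.89 and 4.64 CPM (1.39 ± 0.29, adjusted p = 0.00431). The pulsed cells at D6 stood 9.41-fold above D5 (log2 3.23 ± 0.30, adjusted p = 2.02e-06). In both comparisons with D5, any difference in the handling or counting of the D5 libraries cannot be told apart from the day.

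After the pulse Hey1 did not pass at either day. At D8 it had 30.1 and 15.2 CPM in GLI1 OE cells and 32.4 and 15.6 CPM in controls (-0.08 ± 0.37). At D12 it had 36.1 and 43.2 CPM in GLI1 OE cells, below both controls at 56.0 and 44.6 CPM (-0.34 ± 0.37, adjusted p = 0.973). Within the pulsed cells Hey1 fell at D8 relative to D6 (-1.23 ± 0.35, adjusted p = 0.0129), a call lost without D8 GLI1 OE library 18 (adjusted p = 0.122) and larger without D8 GLI1 OE library 14 (-1.82). In controls it rose at D12 relative to D8 (1.07 ± 0.37, adjusted p = 0.0375). That rise was lost without D8 control library 17 (adjusted p = 0.268), without D12 control library 19 (0.169) or 9 (0.0579), and in a fit of those groups alone (0.0721), and was 1.70 on the log2 scale without D8 control library 13.

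The change in the effect on Hey1 between days was tested directly. The effect at D8 was lower than at D6 by 1.93 ± 0.48 on the log2 scale (adjusted p = 0.119), and the effect at D12 was lower than at D6 by 2.19 ± 0.48 (adjusted p = 0.0634). Neither passed, nor did any of the other 9 genes. Across all genes 0.631% passed for D8 and 0.604% for D12. The unadjusted p for Hey1 was 0.00133 and 0.000468, and 1 and 3 of the 10 genes were under an unadjusted p of 0.05. DESeq2 called Hey1 in both (adjusted p = 0.00876 and 0.00112), limma-voom in the D12 test (0.0229), and the fit with pairs as a replicate block in both (0.0140 and 0.0110). That block also called Dll4 in the D8 test (-2.49, adjusted p = 0.0405).

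Heyl, known for vascular smooth muscle and somites, had 11.7, 8.19 and 12.4 CPM in D6 GLI1 OE cells, against 2.37, 1.35 and 1.36 CPM in D6 controls. The groups did not overlap, and the fold was 6.34 (log2 2.66 ± 0.60, adjusted p = 0.0208). The call was lost without D6 GLI1 OE library 12 (adjusted p = 0.0591) or 4 (0.0676). It was also lost without D6 control library 15 (0.108) or 3 (0.109). The log2 fold change stayed between 2.52 and 2.98 in all 13 alternatives. The D6 GLI1 OE cells were 20.6-fold above the D5 controls (log2 4.36 ± 0.60, adjusted p = 0.000105), which had 0.918, 0.846, 0.166 and 0.127 CPM, or as few as 3 counts.

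The later Heyl values depended on the library. At D8 GLI1 OE library 14 had 17.1 CPM and library 18 had 4.18 CPM, on either side of the controls at 6.94 and 4.88 CPM (0.85 ± 0.68, adjusted p = 0.913). Without library 14 the log2 fold change was -0.52. At D12 the values were 12.1 and 23.2 CPM in GLI1 OE cells and 17.3 and 19.1 CPM in controls. In controls Heyl was higher at D8 than at D6 (1.80 ± 0.64, adjusted p = 0.0426). That call was lost without D6 control library 11 (adjusted p = 0.0514), 15 (0.115) or 3 (0.114), without D8 control library 13 (0.205) or 17 (0.0778), under limma-voom (0.0675) and without the expression filter (0.0528).

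Hey2, the HEY gene of the ventricular compact myocardium, passed between days and at no day for the pulse. It had 35.4 and 30.8 CPM in D8 GLI1 OE cells, against 10.6, 12.2 and 12.9 CPM in D6 GLI1 OE cells (1.48 ± 0.32, adjusted p = 0.00251). In controls it had 49.3 and 35.8 CPM at D8, against 9.21, 19.8 and 14.96 CPM at D6 (1.54 ± 0.31, adjusted p = 0.00228). Both rises held in all 10 alternatives run. GLI1 OE differed from control by -0.30 ± 0.29 at D6, -0.36 ± 0.35 at D8 and -0.24 ± 0.35 at D12, none of which passed.

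Hes1, a widely expressed target, had 58.5, 53.9 and 56.1 CPM in D6 GLI1 OE cells and 45.6, 39.9 and 54.3 CPM in D6 controls, which overlapped (0.27 ± 0.18, adjusted p = 0.562). It fell by D8 in both conditions, by 0.92 ± 0.21 in GLI1 OE cells (adjusted p = 0.00406) and by 0.85 ± 0.21 in controls (adjusted p = 0.00755), to 26.6 and 32.7 CPM in GLI1 OE cells and 25.9 CPM in both controls. The first was lost without D8 GLI1 OE library 14 (adjusted p = 0.0506) and the second without D8 control library 13 (0.0536). In controls it rose again by D12, to 44.7 and 44.1 CPM (0.78 ± 0.23, adjusted p = 0.0170). Leaving out D8 control library 13 or 17 or D12 control library 19 or 9 ended that call (adjusted p = 0.0664, 0.0704, 0.0757 and 0.0501). D6 GLI1 OE cells were above the D5 controls (0.52 ± 0.17, adjusted p = 0.0355), a call lost without D5 control library 1 (0.0952) or 2 (0.0940), without D6 GLI1 OE library 12 (0.0885), 16 (0.0704) or 4 (0.0814), and in a fit of those groups alone (0.0698).

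**Figure D5:**
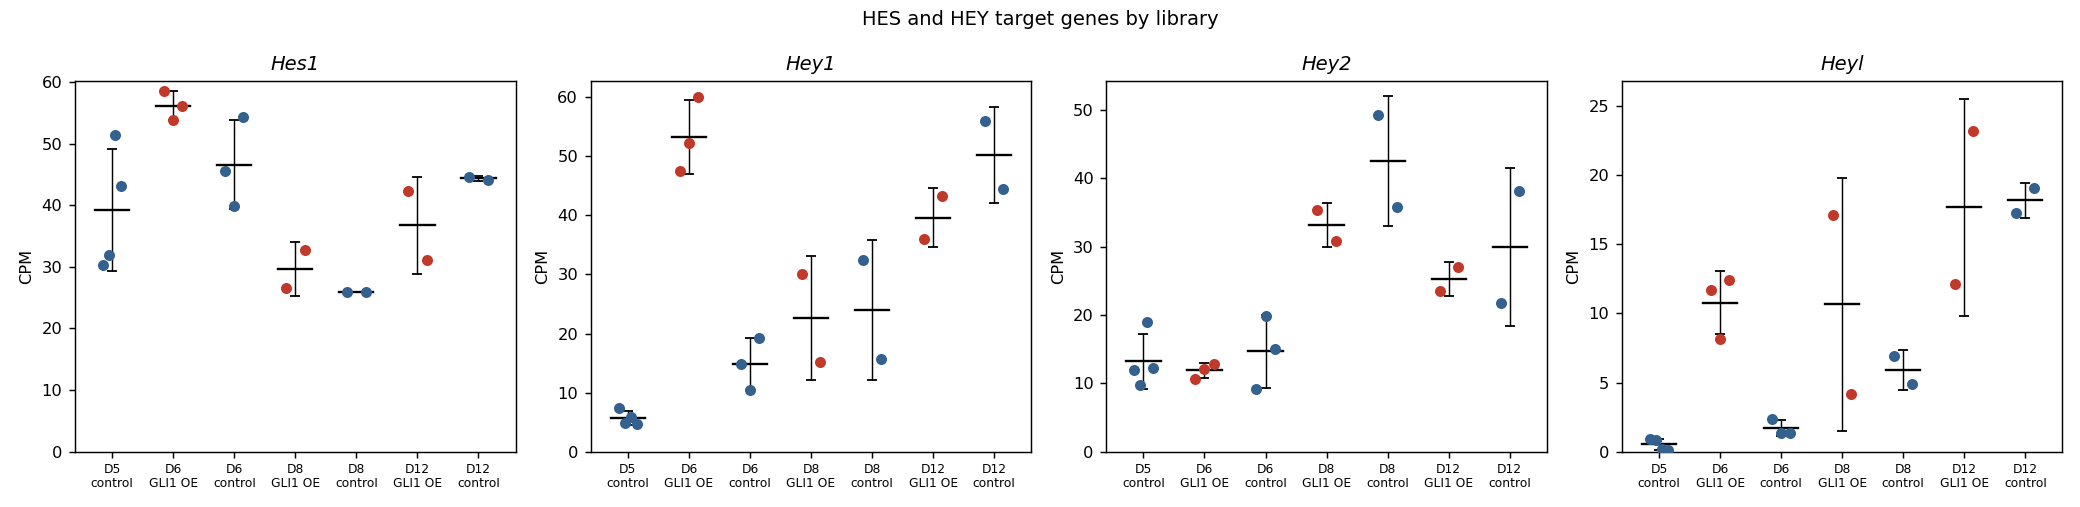
CPM of Hes1, Hey1, Hey2 and Heyl (vertical axis, linear, a different range in each panel) in each library, by day and condition, with red points for GLI1 OE and blue for control. The long bar is the group mean and the thin bars are 1 SD; Hey1 lies at 47.5 to 60.0 CPM and Heyl at 8.19 to 12.4 CPM in D6 GLI1 OE, against 10.4 to 19.2 CPM and 1.35 to 2.37 CPM in D6 control.

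Counted by time step, between 2 and 5 of the 10 genes passed, where between 18.4% and 40.1% of all genes did. Between D5 and D6, 3 of the 10 were higher in controls (Notch3, Dll4, Hey1) and none was lower, against 18.4% of all genes, 8.39% higher and 9.99% lower. The D6 GLI1 OE cells differed from D5 in 5 genes, with Dll4, Hes1, Hey1 and Heyl higher and Jag1 lower, against 29.5% of all genes (14.8% higher, 14.7% lower). From D6 to D8, controls had 4 calls (Notch1, Hey2 and Heyl higher, Hes1 lower) against 34.8% of all genes (17.3% higher, 17.5% lower). Pulsed cells had 4 (Hey2 higher, Notch2, Hes1 and Hey1 lower) against 40.1% (20.3% higher, 19.8% lower). From D8 to D12, controls had 5 calls (Notch2, Jag1, Hes1 and Hey1 higher, Notch3 lower) against 36.3% (16.9% higher, 19.4% lower). Pulsed cells had 2 (Notch2 and Jag1 higher) against 33.5% (15.9% higher, 17.5% lower). Steps that follow each other share the libraries of the middle day.

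The D5 libraries carry another style of name in the count table than the later ones. Psenen, a subunit of the gamma-secretase that cuts Notch receptors, had 0.905 ± 0.103 CPM in D6 controls (n = 3) and 18.8 ± 4.38 CPM in D5 controls (SD, n = 4). Its other group means were between 1.11 and 2.08 CPM. Aph1a had 16.9 ± 1.84 CPM in D6 controls and 46.1 ± 6.58 CPM in D5 controls, and Hdac1 had 30.1 ± 2.44 and 126 ± 16.0 CPM. Of 53 further genes tested, described below, 9 were called higher and 7 lower in D6 controls against D5. Of all genes, 8.39% were called higher and 9.99% lower in that comparison. Whether D5 libraries were handled or counted apart from the later ones was not tested, and any such difference cannot be told apart from the day in the comparisons with D5.

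Another 57 genes, of the pathway or listed with it, were followed as a group, of which 53 passed the filter. At D6, 3 of the 53 were higher in GLI1 OE cells and 1 was lower, where 3.02% of all genes were higher and 1.12% lower. None passed at D8 or D12, where 0% of all genes did. Tle1, a Groucho-type corepressor that HES proteins recruit, averaged 72.0 ± 7.18 CPM in GLI1 OE cells and 16.6 ± 1.97 CPM in controls (SD, n = 3 each; log2 2.12 ± 0.39 SE, adjusted p = 0.00576). Among 12 genes of receptor trafficking and turnover 1 was higher: Dtx1, a Deltex ubiquitin ligase, had 4.07 ± 1.64 CPM in GLI1 OE cells and 0.514 ± 0.201 CPM in controls (2.97 ± 0.54, adjusted p = 0.00503). A further list of 10 genes held HES genes, Helt, Nrarp and the Id genes Id1, Id2 and Id3, and 6 of them could be tested. Id2 was lower, at 66.0 ± 16.3 CPM in GLI1 OE cells and 162 ± 34.6 CPM in controls (-1.29 ± 0.30, adjusted p = 0.0261). Id1 and Id3 did not pass, at 41.2 ± 20.9 and 90.2 ± 42.2 CPM in GLI1 OE cells, against 89.1 ± 28.3 and 199 ± 70.3 CPM in controls. Whether the Id genes respond to Notch in these cells was not tested.

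The remaining groups had no call at D6. None of 6 further receptors and ligands passed, of which Dlk1 was the highest by CPM, at 492 ± 143 CPM in GLI1 OE cells and 661 ± 261 CPM in controls. None of 5 glycosylation genes (Poglut1 the highest), 9 cleavage genes (Adam10) or 7 genes of the nuclear complex (Ep300) passed. Ep300 averaged 183 ± 17.9 CPM in GLI1 OE cells and 180 ± 16.6 CPM in controls. By time step, 16, 16 and 19 of the 53 genes were called in controls, where 18.4%, 34.8% and 36.3% of all genes were. In pulsed cells 21, 25 and 15 of the 53 were called, where 29.5%, 40.1% and 33.5% of all genes were. From D8 to D12, 5 of 9 cleavage genes were higher and none lower in pulsed cells, and 6 of 9 were higher and none lower in controls. Among 12 genes of receptor trafficking and turnover, 5 were higher and none lower in each condition. Of all genes, 15.9% were higher and 17.5% lower at this step in pulsed cells, and 16.9% and 19.4% in controls. None of the 5 glycosylation genes was called at it in either condition. Against D5 the cleavage genes went the other way. In D6 controls 0 of 9 were higher and 3 lower, where 8.39% and 9.99% of all genes were. In D6 GLI1 OE cells 0 were higher and 4 lower, where 14.8% and 14.7% of all genes were.

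Other cell type markers at D6 are given beside the higher Hey1 and Heyl, and few single markers passed. The summed level of 6 endoderm markers was 112 to 131 CPM in GLI1 OE cells and 15.6 to 26.7 CPM in controls, with Foxa2 the only one of the 6 to pass. Sums over 8 presomitic and paraxial markers were 34.1 to 36.6 CPM in GLI1 OE cells, with Msgn1 at 0, and 10.9 to 19.0 CPM in controls, with Ripply2 at 0. Foxc2 made up most of these sums, at 32.7 ± 2.09 CPM in GLI1 OE cells and 11.4 ± 4.68 CPM in controls (SD, n = 3 each). None of the 5 of these markers that could be tested passed, their median log2 fold change was -0.89, and Meox1 had 1.25 ± 0.477 CPM in GLI1 OE cells and 3.20 ± 1.33 CPM in controls. Sums over 8 smooth muscle and pericyte markers were 2267 to 4612 CPM in GLI1 OE cells and 4258 to 6372 CPM in controls, and 1 of the 8, Rgs5, was higher. Sums over 10 cardiomyocyte markers were 914 to 3112 CPM in GLI1 OE cells and 2927 to 7861 CPM in controls, with no single marker past the test. The part of any of these cell types in the Hey1 and Heyl values was not tested.

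The authors' deposited table for D6 listed 4 of the 10 genes under an adjusted p of 0.05. It gave Hey1 a log2 fold change of 1.85 (adjusted p = 4.06e-14) and Heyl 2.68 (3.13e-15). In the authors' deposited table Notch2 had 0.57 (adjusted p = 7.36e-05) and Jag1 -0.65 (0.0232). These estimates lie close to those from the fit to all libraries, in which Notch2 and Jag1 did not pass. The authors' deposited tables for D8 and D12, whose headers do not state the direction, listed none of the 10 under 0.05.

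For the 6 genes whose group means spanned at least 2 log2 units, the genes with the most alike log2 CPM over the 18 libraries were listed. These correlations describe libraries that share days and conditions. Dll4 was most like Esam (r = 0.95), Icam2 (0.95) and Ushbp1 (0.94), of which Esam and Icam2 encode adhesion molecules of endothelial cells. Hey1 was like Lama3 (0.94) and Nfkbia (0.93), and Heyl most like Angptl2 (0.95), Ntm (0.94) and Sorcs2 (0.93). Notch1 was most like Grasp, Sh3bp1 and Arpc1b (0.97 each), Jag1 like Ppp1r12a (0.93), Heatr5a (0.90) and Tmem150a (0.89), and Dll1, at its low counts, like Pcgf2, Trib2 and Mn1 (0.84 each).

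Promoter windows were searched for motifs of RBPJ, of GLI factors and of the HES and HEY proteins. RefSeq windows of 300 bases, 250 before and 50 after the start (GRCm38.p6), matched 7 of the 10 genes in 8 windows; Hes1, Hey1 and Heyl had none. Searched on both strands were TGGGAA, the core of RBPJ sites, GACCACCCA, the GLI consensus, and CACGTG, an E-box that HES and HEY proteins can bind; no pair of these motifs overlapped in a member's window. The RBPJ core was present in 25.6% of 32851 windows of this length, the GLI consensus in 0.253% and the E-box in 7.15%. Of the 8 windows only that of Hey2 held any of them, with 2 RBPJ cores, at -3 on the gene's strand and at -207 on the opposite one. It is shown for chr10:30842778-30843033, minus strand, with the cores in capitals (TTCCCA is the core on the opposite strand).
Hey2: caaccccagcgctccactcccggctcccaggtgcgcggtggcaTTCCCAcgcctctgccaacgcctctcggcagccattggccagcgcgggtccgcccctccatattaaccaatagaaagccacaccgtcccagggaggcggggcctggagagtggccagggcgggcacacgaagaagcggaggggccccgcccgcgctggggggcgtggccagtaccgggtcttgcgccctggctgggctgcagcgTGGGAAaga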

How the data were processed

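PolyA RNA libraries gave single reads of 50 bases, called stranded in the labels' protocols. The authors deposited raw counts per gene symbol for 18 libraries, TPM values for the D5 controls, and tables of log2 fold changes with p-values and adjusted p-values. For the aligner, build and counting method, nothing is given in the sources used here, so counts may include overlapping or antisense genes. The count columns carry library numbers, not the labels' replicate numbers, and are named by them.

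Genes passing edgeR's filter (minimum count 10) were fitted in R 4.3.3 with edgeR 4.0.16: TMM scaling, 1 coefficient per group over all 18 libraries, robust quasi-likelihood F tests, and Benjamini-Hochberg adjustment within each contrast (called under 0.05). CPM uses the TMM library sizes; SE comes from the F statistic. On simulated data the fit recovered 57% of 2-fold changes for GLI1 OE at D6, 50.5% at D8 and 45% at D12. For 4-fold changes it recovered 74%, 70% and 74.7%, so changes of these sizes can be missed. The simulated counts were drawn separately for each gene and library at the fitted spread. Deviations shared by many genes of a library were left out, so recovery in the real data may be lower. Recovery also depends on how many changes were planted, since the adjustment runs over all genes. Alternatives were RLE scaling, no filter, only the groups compared, DESeq2 1.42.0, limma-voom (limma 3.58.1) and leaving out each library; a replicate block was added after the data were seen. The fits with 1 library left in a group assume that it varies like the others. Likeness used log2 CPM with a prior count of 2.

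The genes, lists and tests were chosen with earlier results of these data known. Named were the 10 genes, pathway genes called at D6 and the highest by CPM of each pathway group, and the 3 most alike genes of each member spanning 2 log2 units. Psenen, Aph1a, Hdac1, the genes named with Id2 and single markers were chosen after their values were seen. Results for some genes under this rule are left out of the text.

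Adjacent library numbers were checked as pairs: deviations from the group mean correlated within each D6 pair (0.617, 0.445 and 0.520) and at D8 (0.491), but not at D12 (-0.231).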

Additional observations from a re-analysis of the deposited data

How the results depend on the processing

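None of the estimates for the 10 genes changed sign while passing the test. Of 25 calls on them, 11 held in every alternative run and 14 were lost in at least 1. Leaving out 1 library at a time gave 1 to 2 called genes for GLI1 OE at D6, 2 to 4 for D8 over D6 in controls, 2 to 3 for D12 over D8 in controls, 3 to 7 for D6 GLI1 OE over D5 and 1 to 3 for D12 over D8 in pulsed cells. A fit of those groups alone gave 0 for D12 over D8 in pulsed cells, where it called 0 of all genes, against 4985 in the fit to all libraries. For the change in the GLI1 OE effect from D6 to D8 (0 called in edgeR), DESeq2 called 1 gene, the replicate block 2 and the block with D12 pairs crossed 1. For the change from D6 to D12 (0 called), DESeq2 and limma-voom called 1 each, the replicate block 1 and the crossed block 2 (Hey1 and Heyl). The cause of these differences was not tested. The pairs come from adjacent library numbers, not from the labels. At D6 the replicate block called 1358 of all genes, against 616 without it, and the crossed block 2239; a fit of the D6 libraries alone called 1254, DESeq2 1030, and leaving out 1 library gave 330 to 458. Counts limit Dll1, at 5 to 60 per library, and Heyl, at 3 counts in its lowest.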
